A study of Mus musculus with 8 samples.

Results

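The RNA exosome subunits are the products of the mouse genes Exosc1 to Exosc10, and these 10 genes, of 55385 in the deposited count table, were taken by symbol. Of the 10, 9 had enough reads to be tested, among 14929 genes tested in all. The RNA exosome is a barrel of proteins that trims and destroys RNA from its 3′ end. A ring of proteins related to the phosphorolytic nuclease RNase PH (Exosc4 to Exosc9) is closed by a cap of RNA-binding proteins (Exosc1, Exosc2 and Exosc3), and in mammals neither ring nor cap cuts RNA. The cutting is done by attached nucleases, of which Exosc10 sits on the barrel in the nucleus. In mouse oocytes Exosc10 is known to be needed for normal growth and maturation.

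The oocytes were grown in culture from embryonic stem (ES) cells of a C57BL/6 x 129/SvJ background, in a study on making oocytes from male mice. MII oocytes of the sex-converted XX line, GV oocytes of the sex-converted XX line, MII oocytes of the native XX line and GV oocytes of the native XX line made up the 4 groups, with 2 libraries each. GV oocytes are arrested before meiotic maturation, with an intact germinal vesicle, and MII oocytes have matured to the second meiotic arrest. Both lines carried the Blimp1-mVenus and Stella-ECFP reporters, and germ cell-like cells made from them were aggregated with somatic cells of embryonic day 12.5 female gonads. After 21 days of differentiation culture and 11 days of growth culture, GV oocytes were collected in the presence of dibutyryl-cAMP and IBMX, which hold meiosis. MII oocytes had a further 16 hours of maturation culture and were chosen by the first polar body. Each origin was represented by 1 line, named N2DsRed4XO63R2 (sex-converted) and H18 (native) in the labels, so that a difference between lines and an effect of sex conversion cannot be told apart. The labels call the samples of a stage biological duplicates, and each library pooled 35 to 58 MII or 31 to 158 GV oocytes.

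Libraries were made from polyadenylated RNA and held 12479197 and 14389689 reads on genes (sex-converted MII), 11741295 and 14999003 (sex-converted GV), 14690428 and 11894026 (native MII) and 13541580 and 10306471 (native GV). All 10 oocyte markers examined were present in every library. The 12 granulosa and cumulus markers summed to between 117 and 148 reads per 1000000 reads (CPM) in the MII libraries, against between 55.7 and 78.2 CPM in the GV libraries, with 7 to 11 of the 12 detected and Foxl2 and Amh at 0 in most libraries. The 9 stromal and theca markers summed to between 3.23 and 19.2 CPM at MII, against between 0.877 and 1.55 CPM at GV, with 3 to 5 of the 9 detected and Col1a2 and Lum at 0 in all libraries. The GV libraries fell into pairs that crossed the lines. Replicate 1 of the sex-converted line and replicate 2 of the native line had 526 and 558 CPM summed over 13 mitochondrially encoded genes, against 1674 and 1869 CPM in the other GV libraries and between 5910 and 7280 CPM at MII. The part of these differences in the results below was not tested, and subunit calls that change without either pair of GV libraries are given with and without it.

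Growing oocytes store mRNA and then stop transcription, and during maturation many stored mRNAs are destroyed while others gain a longer poly(A) tail. Tail growth is directed by the cytoplasmic polyadenylation element (CPE), a U-rich stretch in the 3′ untranslated region that lies close to the poly(A) signal. The ends of the subunit mRNAs are shown because the libraries were selected by poly(A). Each stretch is 30 bases of the mRNA strand of GRCm38, written as DNA, with the letters of a CPE (TTTTAT or TTTTAAT) or of a poly(A) signal (AATAAA or ATTAAA) in capitals, searched on the mRNA strand in the last 100 bases of 1 annotated coding transcript per gene.
Exosc3, chr4:45316617-45316646, minus strand: aaacTTTTATatAATAAActttgttggtag
Exosc8, chr3:54728692-54728721, minus strand: ctTTTTATactaAATAAAtacctaattcca
Exosc4 CPE letters, chr15:76330604-76330633, plus strand: tcagccaaataaTTTTATgtttgaggatca
Exosc4 poly(A) signal, chr15:76330641-76330670, plus strand: atgaggaacggtATTAAAggtcagaatgtt
Exosc2, chr2:31681317-31681346, plus strand: aaaaaaaaagagAATAAAgggaggtagcag
Exosc10, chr4:148582363-148582392, plus strand: cattttaaaaccATTAAAatgtattcctac
In Exosc3 the CPE letters began 30 bases and the nearest poly(A) signal 22 bases before the annotated end. In Exosc8 these distances were 42 and 32 bases, and in Exosc4 they were 62 and 25 bases. Exosc6 held CPE letters 74 bases before its end and no poly(A) signal letters. The ends used for Exosc2, Exosc7, Exosc9 and Exosc10 held a poly(A) signal and no CPE letters, and those used for Exosc1 and Exosc5 held neither. Another annotated end of each of Exosc1 and Exosc5 held 1 poly(A) signal and no CPE letters. CPE letters occurred in 16.5% of 21747 coding genes and in 19.2% of 12539 coding genes tested. A match of letters is a description of the annotated sequence, and binding or tail length was not measured here.

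Maturation changed the subunit mRNAs in opposite directions. In both lines Exosc1, Exosc2 and Exosc5 fell and Exosc3 and Exosc8 rose. These are 2 higher and 3 lower of 9, where 26.9% of all tested genes were higher and 32% lower in both lines. In the sex-converted line 3 of the 9 tested subunits were higher and 4 lower in MII than in GV oocytes at an adjusted p under 0.05 (edgeR quasi-likelihood test), where 65.5% of all tested genes were called (29.3% higher and 36.2% lower). In the native line 2 were higher and 4 lower, where 65.2% of all tested genes were called (29.6% higher and 35.7% lower). The share of subunits called was therefore near that of genes at large. The median log2 fold change, MII over GV, of the 9 subunits was -0.38 in the sex-converted line and -0.64 in the native line, against -0.35 and -0.31 over all tested genes. Because CPM was scaled by trimmed mean of M-values (TMM) factors, each change is relative to the other polyadenylated mRNAs. For a rise, more mRNA and a longer poly(A) tail on the same mRNA cannot be told apart. For a fall, loss of an mRNA and a shorter poly(A) tail cannot be told apart. Nor can less mRNA per oocyte be told from fewer oocytes that hold it, since oocytes were pooled. With scaling by library totals alone the median over all tested genes dropped by 0.93 on the log2 scale in the sex-converted line and by 0.91 in the native line, and the share of higher calls was 23.4% in place of 44.7% and 24.6% in place of 45.3%.

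**Figure D1:**
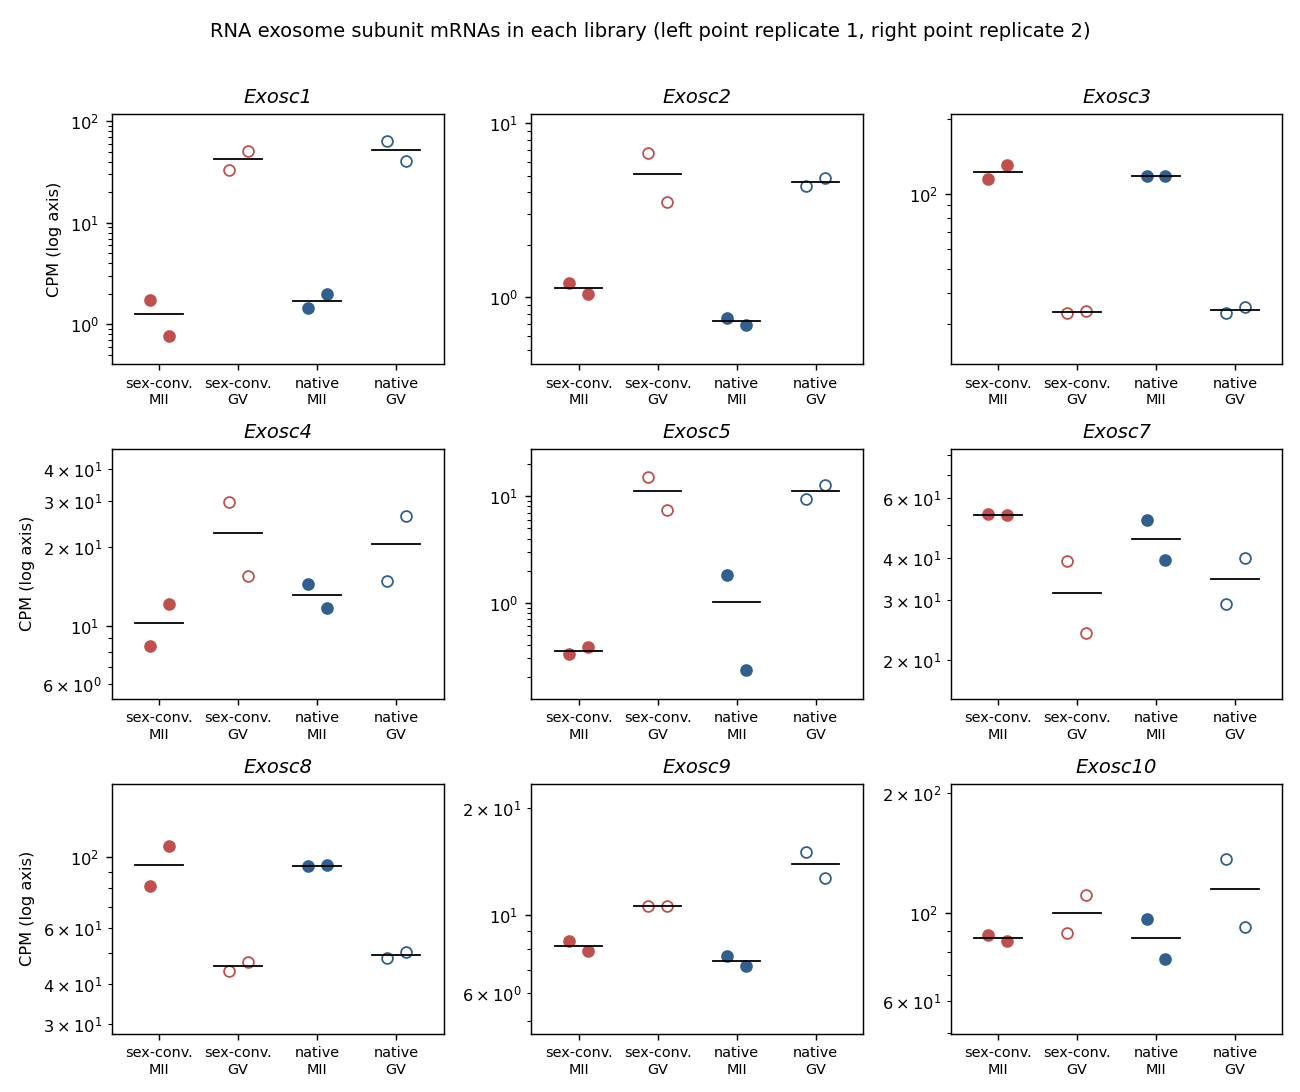
CPM (log axis, with its own range for each gene) of the 9 detected subunits in each of 8 libraries, with sex-converted MII, sex-converted GV, native MII and native GV oocytes from left to right; points are libraries and lines are group means. Exosc1, Exosc2 and Exosc5 lie lower at MII than at GV, Exosc3 and Exosc8 lie higher, and the points of Exosc10 stay between 76.8 and 137 CPM.

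Of the cap, Exosc1 (ENSMUSG00000034321.14, chr19:41922292-41933423, minus strand) joins the other cap proteins in binding RNA at the mouth of the barrel. It had 1.75 and 0.761 CPM (16 and 8 reads) in sex-converted MII oocytes, against 33.0 and 51.3 CPM (554 and 1052 reads) in sex-converted GV oocytes. In native MII oocytes it had 1.43 and 1.97 CPM (15 and 17 reads), against 63.4 and 40.7 CPM (1139 and 578 reads) in native GV oocytes. Every MII library lay far below every GV library. The log2 fold change was -5.08 ± 0.45 (SE, n = 2 per group) in the sex-converted line, which is 33.9-fold lower (edgeR adjusted p = 3.53e-06), and 55.0-fold lower without MII replicate 1, which held 16 of the 24 MII reads. In the native line it was -4.94 ± 0.44, or 30.7-fold lower (edgeR adjusted p = 3.37e-06). Only 3.62% of tested genes in the sex-converted line and 3.08% in the native line had a more negative log2 fold change.

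Exosc2 (ENSMUSG00000039356.15, chr2:31670715-31681349, plus strand) is a cap protein with RNA-binding domains that also contacts the ring. It had 1.20 and 1.05 CPM (11 reads in each library) in sex-converted MII oocytes, against 6.74 and 3.51 CPM (113 and 72 reads) in sex-converted GV oocytes. It had 0.764 and 0.694 CPM (8 and 6 reads) in native MII oocytes, against 4.34 and 4.85 CPM (78 and 69 reads) in native GV oocytes. The groups did not overlap in either line. Exosc2 fell by 2.18 ± 0.49 on the log2 scale in the sex-converted line (edgeR adjusted p = 0.00233) and by 2.64 ± 0.52 in the native line (edgeR adjusted p = 0.000986). With 6 to 11 reads per MII library, counting error adds to the spread of its MII values.

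Exosc3 (ENSMUSG00000028322.11, chr4:45316613-45342732, minus strand) is a cap protein, and its mutation in humans causes a form of pontocerebellar hypoplasia. It had 115 and 130.5 CPM (1048 and 1372 reads) in sex-converted MII oocytes, against 33.3 and 33.7 CPM (559 and 692 reads) in sex-converted GV oocytes. Native MII oocytes had 117 CPM in both libraries (1230 and 1015 reads), against 33.4 and 35.2 CPM (599 and 501 reads) in native GV oocytes. The 4 GV libraries lay within 33.3 to 35.2 CPM, and all 4 MII libraries lay above them. Exosc3 rose by 1.87 ± 0.19 on the log2 scale in the sex-converted line, which is 3.66-fold (edgeR adjusted p = 1.05e-05). In the native line it rose by 1.78 ± 0.19, which is 3.42-fold (edgeR adjusted p = 1.50e-05). Scaled by library totals alone, its log2 fold changes were 0.93 and 0.86, and both calls held (edgeR adjusted p = 0.00157 and 0.00257). Of the 3 cap genes 1 was thus higher and 2 were lower in both lines, against 26.9% and 32% of all tested genes.

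**Figure D2:**
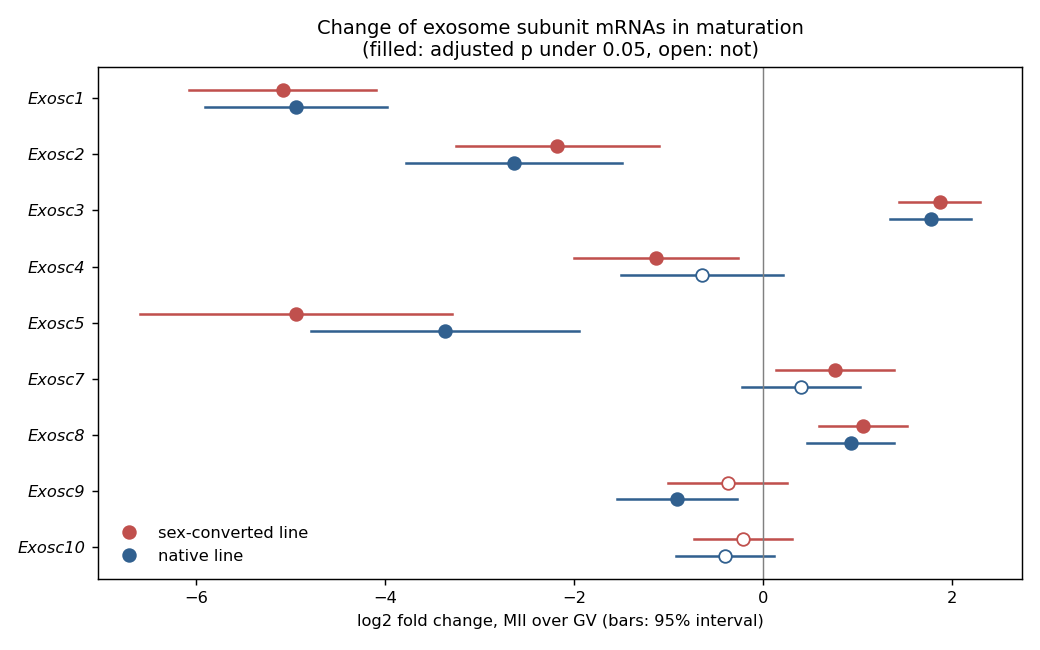
The log2 fold change, MII over GV, of each tested subunit in the sex-converted line (upper point of each pair) and the native line (lower point), with bars for the 95% interval and filled points for an adjusted p under 0.05. Exosc1 and Exosc5 lie lowest, Exosc3 lies highest, and both intervals of Exosc10 include 0.

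Among the ring genes, Exosc8 (ENSMUSG00000027752.15, chr3:54728678-54735393, minus strand) had 81.2 and 108 CPM (742 and 1138 reads) in sex-converted MII oocytes, against 44.0 and 47.0 CPM (738 and 965 reads) in sex-converted GV oocytes. In native MII oocytes it had 93.6 and 94.4 CPM (980 and 816 reads), against 48.3 and 50.4 CPM (868 and 717 reads) in native GV oocytes. All MII libraries were above all GV libraries. Exosc8 rose by 1.06 ± 0.21 on the log2 scale in the sex-converted line (edgeR adjusted p = 0.00103) and by 0.93 ± 0.21 in the native line (edgeR adjusted p = 0.00240). By library totals alone these log2 fold changes were 0.12 and 0.017 and were not called, so the rise of Exosc8 is one relative to other mRNAs and not one in its share of reads. Exosc8 shares 89 exon bases (2.05% of its own) with Supt20 on the opposite strand, and Supt20 had 49 to 78 reads at MII and 1504 to 2683 reads at GV.

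Exosc5 (ENSMUSG00000061286.7, chr7:25659164-25671368, plus strand), another ring protein, was close to undetected at MII. It had 0.328 and 0.38 CPM (3 and 4 reads) in sex-converted MII oocytes, against 15.1 and 7.41 CPM (253 and 152 reads) in sex-converted GV oocytes. It had 1.81 and 0.231 CPM (19 and 2 reads) in native MII oocytes, against 9.41 and 12.8 CPM (169 and 182 reads) in native GV oocytes. The groups did not overlap in either line, and 19 of the 21 native MII reads were in replicate 1. That library also had the highest summed levels of granulosa and cumulus markers (148 CPM) and of stromal and theca markers (19.2 CPM), and the part of these in its Exosc5 reads was not tested. Exosc5 fell by 4.94 ± 0.75 on the log2 scale in the sex-converted line (edgeR adjusted p = 0.000154) and by 3.37 ± 0.64 in the native line (edgeR adjusted p = 0.000803). Without sex-converted GV replicate 1 the log2 fold change in that line was -4.34. Native replicate 1 at MII decided the size in the native line. Without it the fitted log2 fold change was -5.54, from 2 MII reads against 351 GV reads, and the ratio of GV to MII was 47.1 (95% interval for counting error only, 13.0 to 391). Without native MII replicate 2 the ratio was 6.01 (3.79 to 10.1).

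Exosc4 and Exosc7 were called in the sex-converted line only, and neither difference between the lines passed its test. Exosc4 (ENSMUSG00000034259.8, chr15:76327397-76330677, plus strand) had 8.43 and 12.2 CPM in sex-converted MII oocytes, against 29.8 and 15.5 CPM in sex-converted GV oocytes. It had 14.5 and 11.7 CPM in native MII oocytes, against 14.8 and 26.2 CPM in native GV oocytes. The MII libraries were the lower ones in both lines, though native GV replicate 1 lay close to native MII replicate 1. Exosc4 fell by 1.13 ± 0.39 on the log2 scale in the sex-converted line (edgeR adjusted p = 0.0251), while its log2 fold change in the native line was -0.64 (95% interval -1.50 to 0.21, edgeR adjusted p = 0.166). By library totals it was called lower in the native line too (-1.56, edgeR adjusted p = 0.00606). The call was lost without sex-converted GV replicate 1 (-0.58, edgeR adjusted p = 0.256) or MII replicate 1 (-0.90, adjusted p = 0.145), and without both GV libraries poor in mitochondrial transcripts (-0.58, adjusted p = 0.186). By contrast, Exosc4 was called lower in the native line without the GV libraries richer in mitochondrial transcripts (-0.99, adjusted p = 0.0283).

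Exosc7 (ENSMUSG00000025785.5, chr9:123113215-123136129, plus strand) had 53.6 and 53.5 CPM in sex-converted MII oocytes, against 39.1 and 24.0 CPM in sex-converted GV oocytes. It had 51.6 and 39.5 CPM in native MII oocytes, against 29.2 and 40.0 CPM in native GV oocytes, where the groups overlapped. Exosc7 rose by 0.77 ± 0.28 on the log2 scale in the sex-converted line (edgeR adjusted p = 0.0335), a direction that turned to -0.18 under scaling by library totals. In the native line its log2 fold change was 0.40 (95% interval -0.23 to 1.02, edgeR adjusted p = 0.236), and -0.52 by library totals. The call in the sex-converted line was lost without GV replicate 2 (0.49, adjusted p = 0.202), without MII replicate 1 (0.76, adjusted p = 0.0969) or without MII replicate 2 (0.77, adjusted p = 0.100). It was also lost without both GV libraries richer in mitochondrial transcripts (0.49, adjusted p = 0.112) and among genes with a mean of at least 50 reads (0.66, adjusted p = 0.0569).

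Exosc9 (ENSMUSG00000027714.11, chr3:36552606-36565727, plus strand), a ring protein known as an autoantigen in human polymyositis and scleroderma overlap, was called lower in the native line. It had 8.43 and 7.89 CPM in sex-converted MII oocytes, against 10.6 CPM in both sex-converted GV libraries. It had 7.64 and 7.17 CPM in native MII oocytes, against 15.1 and 12.7 CPM in native GV oocytes. The MII libraries were below the GV libraries in both lines. Its log2 fold change was -0.38 (95% interval -1.01 to 0.25) in the sex-converted line (edgeR adjusted p = 0.265), and it fell by 0.91 ± 0.29 in the native line (edgeR adjusted p = 0.0166). By library totals it was called lower in the sex-converted line too (-1.31, edgeR adjusted p = 0.00172). The native call was lost without GV replicate 1 (-0.76, adjusted p = 0.0951), MII replicate 1 (-0.97, adjusted p = 0.0530) or MII replicate 2 (-0.89, adjusted p = 0.0703), and without both GV libraries richer in mitochondrial transcripts (-0.76, adjusted p = 0.0820). Exosc9 overlaps Ccna2, the cyclin A2 gene on the opposite strand, over 510 exon bases (10.8% of its own), and Ccna2 had 6221 to 7820 reads at MII and 2146 to 4006 reads at GV. The strand setting of the counting step and its handling of reads that match several genes are not stated in any source at hand. The Exosc9 count may therefore lack reads from the shared bases or include reads of Ccna2.

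Exosc6 (ENSMUSG00000109941.1, chr8:111056339-111057664, plus strand), the remaining ring gene, had 0 reads in all 8 libraries. All 1326 bases of its exons lie within exons of Aars, an alanyl-tRNA synthetase gene on the same strand, so a read from Exosc6 matches both genes. Aars had 79 and 85 reads in sex-converted MII oocytes, against 1496 and 1339 reads in sex-converted GV oocytes. It had 110 and 72 reads in native MII oocytes, against 1523 and 1128 reads in native GV oocytes. The count of 0 is therefore not a measure of Exosc6 mRNA, and no level or change of it is given.

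The nuclear nuclease Exosc10 (ENSMUSG00000017264.16, chr4:148558429-148582401, plus strand) was not called in either line. It had 87.9 and 84.8 CPM (803 and 892 reads) in sex-converted MII oocytes, against 89.2 and 111 CPM (1496 and 2279 reads) in sex-converted GV oocytes. It had 96.4 and 76.8 CPM (1009 and 664 reads) in native MII oocytes, against 137 and 92.3 CPM (2454 and 1312 reads) in native GV oocytes, and the native groups overlapped. Its log2 fold change, MII over GV, was -0.21 (95% interval -0.73 to 0.31, edgeR adjusted p = 0.441) in the sex-converted line. In the native line it was -0.40 (95% interval -0.92 to 0.12, edgeR adjusted p = 0.154). Exosc10 was the 1 subunit of 9 whose 95% interval lay within a 2-fold change in both lines. Taken line by line, such an interval held for 7.71% of all tested genes in the sex-converted line and 7.50% in the native line. The share of genes for which it held in both lines was not counted. That Exosc10 was not called depended on the scaling and on native GV replicate 2. By library totals Exosc10 was called lower in both lines (log2 fold changes -1.15 and -1.31, edgeR adjusted p = 0.00110 and 0.000455), and without native GV replicate 2 it was called lower in the native line (-0.67, adjusted p = 0.0285), as it was without both GV libraries poor in mitochondrial transcripts (-0.67, adjusted p = 0.0128).

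The level of Exosc10 followed the split among GV libraries. It was lower in the GV libraries poor in mitochondrial transcripts, at 89.2 CPM (sex-converted replicate 1) and 92.3 CPM (native replicate 2), against 111 CPM (sex-converted replicate 2) and 137 CPM (native replicate 1) in the others. Exosc1 showed the same order, with 33.0 and 40.7 CPM against 51.3 and 63.4 CPM. Exosc2, Exosc4, Exosc5 and Exosc7 showed the reverse order. Exosc5 had 15.1 and 12.8 CPM in the poorer libraries against 7.41 and 9.41 CPM in the others. The pairs overlapped for Exosc3, Exosc8 and Exosc9. Over 7683 genes the difference between replicates had a correlation of -0.76 between the GV groups, so the split is not particular to the subunits. How many of all tested genes separate the pairs was not counted. Among 7289 genes compared over the 8 libraries, the patterns most like that of Exosc10 were those of Hyls1 (Pearson r = 0.98 on log2(CPM + 1)), Smc1a (0.97) and Myo5b (0.95). The points share 4 groups, and the GV libraries share the split described above.

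Levels of different genes were compared per kilobase, with all annotated exons of a gene as its length. By that length Exosc3 was the leading subunit at MII and Exosc10 and Exosc3 led at GV. The coding transcripts used for the mRNA ends were shorter to unlike degrees. They held 1018 against 4053 bases for Exosc1, 1680 against 6268 for Exosc5, 1053 against 6013 for Exosc7 and 1300 against 4333 for Exosc8. For Exosc3 they held 1077 against 1324 bases and for Exosc10 2790 against 3594. Such lengths would raise Exosc1, Exosc5, Exosc7 and Exosc8 more than Exosc3 and Exosc10, and would narrow the ratio of Exosc3 to Exosc5. The order, shares and ratios given here depend on the length chosen and were not computed for those transcripts. In sex-converted MII oocytes Exosc3 had 92.6 ± 8.41 CPM per kilobase (SD, n = 2), against 25.3 ± 0.21 in sex-converted GV oocytes. In native MII oocytes Exosc3 had 88.7 CPM per kilobase with libraries that differed by less than the rounding, against 25.9 ± 1.01 in native GV oocytes. Its share of the summed level of all 9 subunits was 59.7% in sex-converted MII oocytes, against 26.2% in sex-converted GV oocytes. In native oocytes its share was 58.7% at MII, against 24.8% at GV.

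Behind Exosc3 at MII came Exosc10 and Exosc8, whose libraries overlapped. In the sex-converted MII group Exosc10 had 24.0 ± 0.61 and Exosc8 had 21.9 ± 4.41 CPM per kilobase. In the native MII group Exosc10 had 24.1 ± 3.84 and Exosc8 had 21.7 ± 0.14 CPM per kilobase. Exosc7 (8.91 in the sex-converted line and 7.57 in the native line) and Exosc4 (5.30 and 6.74) came next and overlapped in the native line, followed by Exosc9 (1.73 and 1.57). The lowest were Exosc2 (0.390 and 0.252), Exosc1 (0.310 and 0.419) and Exosc5 (0.0565 and 0.163), and Exosc2 overlapped Exosc1 in the sex-converted line and Exosc5 in the native line. The highest mean level was 1638 times the lowest in sex-converted MII oocytes, against 15.7 times in sex-converted GV oocytes. In native oocytes this ratio was 544 at MII, against 20.0 at GV. Both MII ratios rest on few reads of Exosc5, with 3 and 4 in the sex-converted line and 19 and 2 in the native line. Counting error in these reads therefore enters both ratios and those of single MII libraries. In native MII oocytes the highest level was 335 times the lowest in replicate 1 (where Exosc2 was lowest) and 2403 times in replicate 2. Within single libraries it was 1654 and 1624 times in the sex-converted MII oocytes, against between 11.2 and 26.1 times in the 4 GV libraries.

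At GV, Exosc10 had 27.9 ± 4.30 CPM per kilobase in sex-converted oocytes and 31.9 ± 8.73 in native ones and overlapped Exosc3 in both. Exosc1, Exosc8 and Exosc4 formed the next set, with means of 10.4 to 11.7 in sex-converted and 10.6 to 12.8 CPM per kilobase in native oocytes, and neighbours in it overlapped. Exosc7 followed (5.25 and 5.76), then Exosc9 (2.25 and 2.95). Exosc5 and Exosc2 were lowest and overlapped, at 1.79 and 1.77 CPM per kilobase in the sex-converted line and at 1.77 and 1.59 in the native line. By this length Exosc1 therefore stood among the middle subunits at GV and among the lowest at MII.

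**Figure D3:**
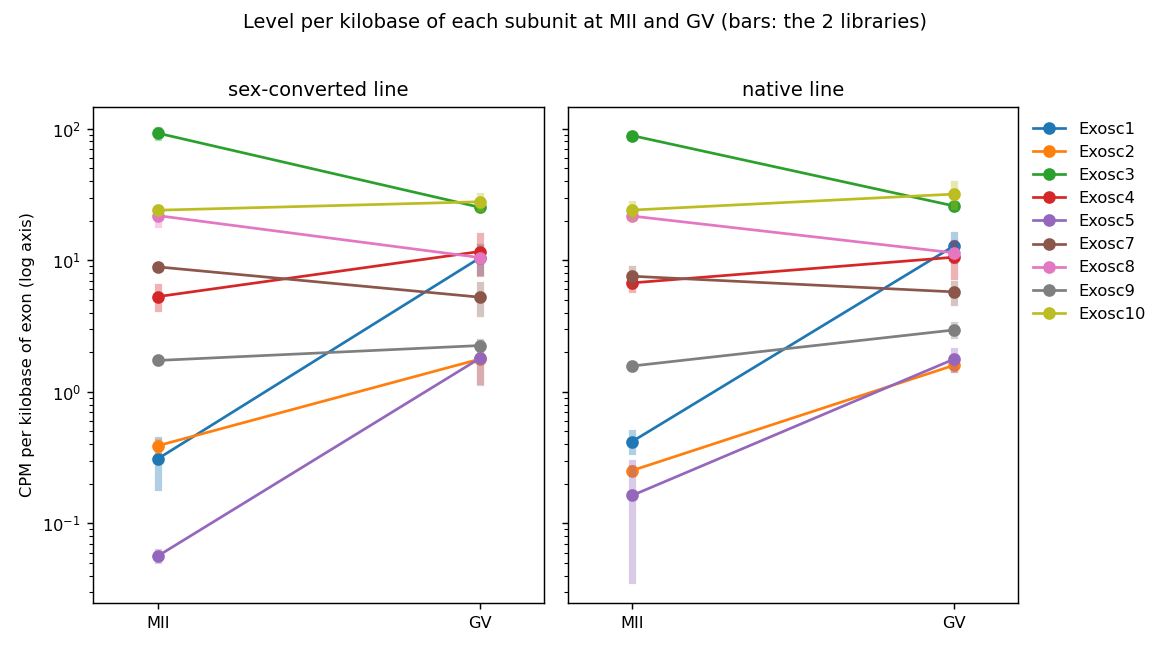
Mean level in CPM per kilobase of exon (log axis) of the 9 detected subunits at MII (left) and GV (right) in the sex-converted line and the native line, with shaded bars spanning the 2 libraries of a group. Levels span a ratio of 1638 and 544 at MII, against 15.7 and 20.0 at GV, and the native MII ratio is 335 and 2403 in its single libraries. Both MII ratios rest on few reads of Exosc5 (3 and 4 in the sex-converted line, 19 and 2 in the native line).

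Between the lines no subunit passed the test at either stage. At GV, 0 of 9 subunits were called between sex-converted and native oocytes (edgeR quasi-likelihood test), where 0.0134% of all tested genes were called, and 0 of 9 had an unadjusted p under 0.05. At MII, 0 of 9 were called, where 0.0134% of all tested genes were called, and again 0 of 9 had an unadjusted p under 0.05. DESeq2 also called 0 at both stages. The log2 fold changes, sex-converted over native, ran from -0.39 (Exosc9) to 0.15 (Exosc2) at GV. At MII they ran from -1.56 (Exosc5) to 0.61 (Exosc2).

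The intervals say how large a difference these duplicates could have missed. For 5 of 9 subunits at GV (Exosc3, Exosc4, Exosc7, Exosc8 and Exosc10) the 95% interval of the difference lay within 2-fold, as it did for 49.2% of all tested genes. At MII this held for 5 of 9 (Exosc3, Exosc7, Exosc8, Exosc9 and Exosc10), against 43.4% of all tested genes. The narrowest was that of Exosc3, with a log2 fold change of -0.033 at GV (95% interval -0.45 to 0.39) and 0.062 at MII (-0.35 to 0.48). The widest was that of Exosc5 at MII, with -1.56 (-3.51 to 0.40), where 7 reads stood against 21. The native MII libraries themselves differed 7.84-fold in Exosc5 CPM, and how much of the width comes from depth was not tested.

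The change at maturation was compared between the lines by an interaction term. Of the 9 subunits 0 were called (edgeR quasi-likelihood test), where 0% of all tested genes were called, and 0 had an unadjusted p under 0.05. DESeq2 also called 0. The interaction, the log2 fold change of the sex-converted line minus that of the native line, was -0.49 for Exosc4 (95% interval -1.70 to 0.72) and 0.37 for Exosc7 (-0.51 to 1.25), the subunits called in the sex-converted line alone. It was 0.53 for Exosc9 (-0.36 to 1.43), called in the native line alone. For Exosc3, Exosc8 and Exosc10 the interval lay within 2-fold, as it did for 25.9% of all tested genes.

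The nucleases that complete the exosome, Dis3 and Dis3l, both fell at maturation in both lines, as did 32% of all tested genes. Dis3, the processive nuclease of the nuclear exosome, had 0.547 and 0.476 CPM in sex-converted MII oocytes, against 12.5 and 12.4 CPM in sex-converted GV oocytes. In native MII oocytes it had 0.859 and 0.694 CPM, against 17.3 and 11.7 CPM in native GV oocytes. Dis3 fell by 4.58 on the log2 scale in the sex-converted line and by 4.20 in the native line (edgeR adjusted p = 5.73e-06 and 7.12e-06). With 5 to 9 reads of Dis3 per MII library, counting error adds to the spread of its MII values. Dis3l, its cytoplasmic relative, fell by 4.09 and 4.05 (edgeR adjusted p = 2.20e-06 and 2.22e-06), with 13.7 and 11.3 CPM in sex-converted MII oocytes against 199 and 225 CPM in sex-converted GV oocytes.

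The nuclear cofactors, which bring RNA to the exosome, moved both ways, as the subunits did. Of 14 tested, 7 rose and 4 fell in both lines, where 26.9% of all tested genes were higher and 32% lower in both. Those that rose included Mphosph6, which binds the nuclear exosome and helps process ribosomal RNA (log2 fold changes 2.56 and 2.49 in the sex-converted and native lines). Mphosph6 had 3916 and 4682 CPM in sex-converted MII oocytes, against 642 and 816 CPM in sex-converted GV oocytes. Zcchc8 (2.58 and 2.64), the scaffold of the nuclear exosome targeting complex, and Zfc3h1 (2.26 and 2.13) and Pabpn1 (3.30 and 3.38), of the connection to poly(A) tails, also rose. Tent4a (2.40 and 2.48) and Tent4b (0.58 and 0.56), noncanonical poly(A) polymerases, and Zc3h18 (1.87 and 2.14), a link to the nuclear cap-binding complex, made up the rest, although Tent4b was -0.36 and -0.35 and not called under scaling by library totals. Those that fell were Mtrex (-1.77 and -2.15), the helicase shared by the nuclear adaptor complexes, Zcchc7 (-1.27 and -1.87), Srrt (-2.05 and -2.14) and Ncbp1 (-1.61 and -1.14). The native call of Ncbp1 was lost without GV replicate 1 (edgeR adjusted p = 0.0807) or MII replicate 1 (0.127), and that of Tent4b was lost without GV replicate 1 (0.0994), GV replicate 2 (0.0668) or MII replicate 2 (0.301). In the sex-converted line Tent4b lost its call without GV replicate 1 (edgeR adjusted p = 0.186) or MII replicate 1 (0.222). Tent4b was also not called in either line with no count filter (edgeR adjusted p = 0.0600 and 0.106) or with a mean of at least 50 reads (0.0567 and 0.0517), nor in the native line with the compared groups alone (0.0554). Pabpn1 was 4.03 without sex-converted GV replicate 1 and 4.10 without native GV replicate 2.

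Of the 4 cytoplasmic cofactors, 2 rose and 0 fell in both lines, where 26.9% of all tested genes rose and 32% fell. These were Ttc37 (1.41 and 1.13) and Wdr61 (1.85 and 2.00), scaffold proteins of the Ski complex that feeds mRNA to the cytoplasmic exosome. The native call of Ttc37 was lost by library totals (0.22, edgeR adjusted p = 0.290). The helicase of that complex, Skiv2l, had log2 fold changes of 0.040 and 0.42 and was not called in either line (edgeR adjusted p = 0.925 and 0.310), and these were -0.91 (called lower, edgeR adjusted p = 0.0477) and -0.50 (not called, 0.247) by library totals. Without the GV libraries poor in mitochondrial transcripts Skiv2l was called higher in the native line (0.82, edgeR adjusted p = 0.0254). Of 6 other nucleases that work from the 3′ end, 2 rose and 2 fell in both lines, beside the same shares of all tested genes. Those that rose were Dis3l2 (1.68 and 2.08), which degrades uridylated RNA, and the mitochondrial Pnpt1 (1.96 and 1.96). Those that fell were Isg20 (-3.93 and -2.46) and the deadenylase Parn (-1.36 and -1.56). Isg20 rested on 6 and 1 reads at MII in the sex-converted line, and without MII replicate 2 its log2 fold change there was -3.08. Without MII replicate 1 the fitted value was -5.77, from 1 MII read against 214 GV reads, and the ratio of GV to MII was 60.3 (95% interval for counting error only, 10.7 to 2394). No gene of these 4 lists was called between the lines at GV or MII (edgeR quasi-likelihood test, 0 with an unadjusted p under 0.05). At each stage 0.0134% of all tested genes were called between the lines.

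**Figure D4:**
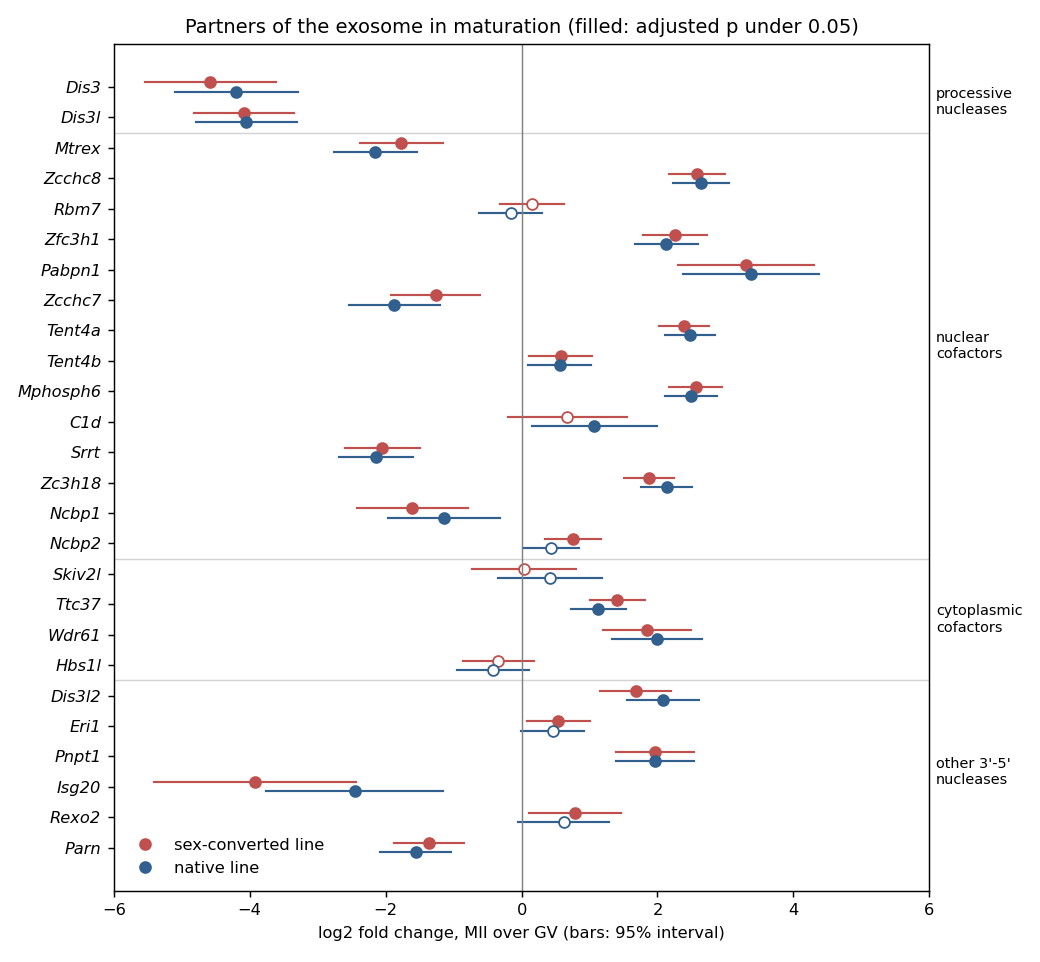
The log2 fold change, MII over GV, of 26 exosome partner genes in the sex-converted line (upper point of each pair) and the native line (lower point), with bars for the 95% interval and filled points for an adjusted p under 0.05. Dis3 and Dis3l lie below -4, and the nuclear cofactors lie on both sides of 0.

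Set beside the mRNA ends shown above, the subunits called higher in both lines, Exosc3 and Exosc8, were both among the 4 with CPE letters. Of these 4, Exosc6 could not be tested. None of the subunits called lower in both lines (Exosc1, Exosc2 and Exosc5) held CPE letters. Exosc4 held CPE letters and was lower at MII in the sex-converted line. Exosc7 held none and was called higher in that line, and Exosc9 held none and was called lower in the native line. By library totals alone the rise of Exosc8 was not called in either line. Among all tested coding genes, 33.3% of 3643 called higher in both lines held CPE letters, against 9.91% of 4206 called lower in both lines. The share was 16.6% among the 4690 other tested coding genes. Among the partners, 4 of 11 called higher, 0 of 8 called lower and 4 of 7 others held CPE letters. These counts describe few genes, and the annotated end used may differ from the end that oocytes use.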

How the data were processed

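The deposited table holds raw read counts per gene, whole numbers with no normalization by the authors. Per the submitters' processing notes, Trimmomatic 0.38, HISAT2 2.1.0, featureCounts 2.0.0, DESeq2 1.30.1 and build mm10 were used. No source used here gives the annotation release, the strand setting or the handling of reads that match several genes. Per the labels, RNA was poly(A)-selected, and libraries were stranded, amplified by 13 cycles and read as 75-base single reads. Total counts per library were 10306471 to 14999003.

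Gene names, exon lengths and mRNA ends came from GENCODE M21 on GRCm38. Of the gene identifiers, 55144 matched and 241 did not (0.00326% of reads). Groups came from the titles. Counts were tested in R 4.3.3 with edgeR 4.0.16 (quasi-likelihood, two-sided, TMM factors, filterByExpr with a minimum count of 10, all 8 libraries in 1 fit with a coefficient per group). Benjamini-Hochberg adjustment ran over all 14929 genes tested, at 0.05. CPM are counts divided by the TMM-scaled library size, times 1000000. Standard errors were the size of the log2 fold change divided by the square root of the F statistic of its test. The 95% intervals were built from them with the t distribution, and p-values rest on duplicates. The test was checked on simulated counts. Alternatives were RLE factors, library totals alone, other count filters, DESeq2 1.42.0, a fit of the compared groups alone, a replicate block, leaving out libraries and longest-transcript lengths. All 10 subunits are named. Partners from 4 lists are named where called in the same direction in both lines, and Dis3, Dis3l, Mtrex, Skiv2l and Dis3l2 always. The 3 genes nearest to Exosc10 had a mean of at least 10 CPM. The members and lists were chosen with earlier results of these data known.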

Additional observations from a re-analysis of the deposited data

Results flagged for a closer look

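Exosc9 was flagged because the sex-converted libraries lay on opposite sides of the native libraries at the 2 stages. How many of all tested genes show such an order was not counted. With 2 libraries per group it can arise without a difference between the lines. At MII, sex-converted oocytes had 8.43 and 7.89 CPM, both above the 7.64 and 7.17 CPM of native oocytes. At GV, sex-converted oocytes had 10.6 CPM in both libraries, both below the 15.1 and 12.7 CPM of native oocytes. The interaction was 0.53 on the log2 scale (SE 0.41, 95% interval -0.36 to 1.43) and did not pass the edgeR quasi-likelihood test (unadjusted p = 0.216, adjusted p = 0.999976). Without each library in turn, or without either pair of GV libraries, it stayed between 0.40 and 0.67.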

How the results depend on the processing

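With scaling by library totals alone, 1 subunit was called higher and 6 lower at MII in the sex-converted line, and 1 higher and 6 lower in the native line, the remaining higher call being Exosc3. Under that scaling Exosc7 turned to -0.18 (sex-converted) and -0.52 (native), Tent4b to -0.36 and -0.35 and Skiv2l to -0.91 and -0.50 (log2 fold change, MII over GV), while all genes called higher numbered 2372 and 2488 in place of 4374 and 4414. The counts of subunits called were otherwise within 1.5 times those reported. Leaving out libraries gave 2 to 3 higher and 3 to 4 lower in the sex-converted line, 2 higher and 3 to 5 lower in the native line, and 0 between the lines or for the interaction. A lone library of a group was then assumed to vary like the other groups.

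Differences near 0 changed sign. Sex-converted over native at GV, Exosc5 became -0.0067 with RLE factors and -0.0040 with DESeq2, and Exosc3 became 0.014 by library totals. At MII, Exosc10 became 0.020 by library totals, 0.032 with no count filter and 0.0043 with the compared groups alone, and Exosc8 became -0.015 with a mean of at least 50 reads, where Exosc2 was not tested. Skiv2l in the sex-converted line became -0.0039 with no filter and -0.065 with that mean. Over fits that left out libraries, the differences at GV ran from -0.67 to 0.066 for Exosc1, -0.38 to 0.54 for Exosc2, -0.091 to 0.0080 for Exosc3, -0.39 to 0.60 for Exosc4, -0.57 to 0.43 for Exosc5, -0.52 to 0.17 for Exosc7 and -0.45 to 0.13 for Exosc10. At MII they ran from -1.12 to 0.069 for Exosc1, -0.020 to 0.17 for Exosc3, -2.30 to 0.62 for Exosc5, -0.20 to 0.22 for Exosc8 and -0.14 to 0.18 for Exosc10. The interaction ran from -0.82 to 0.38 for Exosc1, -0.93 to 0.059 for Exosc4, -2.31 to 0.60 for Exosc5, -0.076 to 0.34 for Exosc8 and -0.12 to 0.46 for Exosc10. Skiv2l ran from -0.35 to 0.65 in the sex-converted line. Over all genes, 1 was higher and 1 lower between the lines at each stage and 0 for the interaction, against 7 and 6 (GV), 9 and 25 (MII) and 1 and 2 (interaction) with no count filter, and DESeq2 called 2 higher at each stage. The cause of these changes was not tested.

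Replicate numbers did not pair the samples, with correlations of deviations over 7683 genes from -0.76 (the GV groups) to 0.21 (the MII groups). With the replicate block the counts of subunits called did not change (of the partners, Tent4b lost its native call, edgeR adjusted p = 0.0553), with 3 higher and 4 lower in the sex-converted line and 2 higher and 4 lower in the native line. Exosc5 at GV became -0.13 and Exosc10 at MII 0.0034 with the block. A crossed block, added after seeing the data, called 0 subunits at GV and gave -0.066 for Exosc5. With the longest transcript as length, Exosc8 stood above Exosc10 at MII in both lines.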
